A study of Mus musculus with 6 samples.

Results

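The 79 mouse genes described here encode the matrix metalloproteinases (MMPs), their tissue inhibitors (TIMPs) and the related metalloproteinases of the ADAM and ADAMTS families. They were all rows of the deposited expression table, out of 24421 gene symbols, whose symbol is Mmp, Timp, Adam or Adamts followed by a digit: 23 Mmp, 4 Timp, 33 Adam and 19 Adamts genes. RNA was sequenced from 3 mammary gland libraries and 3 mammary tumour libraries of 5-month-old female mice. The gland donors carry the strain label FVB/NJ; Tg(LINK-A), and the tumour donors the label FVB/NJ; MMTV-Tg(LINK-A). Both groups therefore carry a LINK-A transgene, made from a long noncoding RNA, by their labels. Only the labels of the tumour mice name MMTV, the mouse mammary tumour virus, whose promoter is active mainly in mammary epithelium. Strain label and tissue differ together, so their parts in a difference cannot be told apart. The labels do not say whether a group's libraries are of different animals, and p-values here cover the spread among these samples, which may be technical. Values are levels in FPKM, the fragments of a gene scaled to its transcript length and to the library's total, which allow levels of different genes to be set side by side.

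MMPs are zinc-dependent endopeptidases, most of them secreted as inactive proenzymes, that cut collagens, laminins, proteoglycans and many non-matrix proteins. TIMPs bind the active site of MMPs and, in part, of ADAM and ADAMTS enzymes. Membrane-anchored ADAMs release the outer parts of growth factors, cytokines and receptors from the cell surface, while secreted ADAMTS enzymes cut proteoglycans and process procollagens. In the mammary gland these enzymes take part in duct branching and in the remodelling that follows lactation, and in tumours both cancer cells and stromal cells can make them.

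The tumour libraries held less stroma-marker RNA than the glands, and tumour 3 stood apart from the other tumours in the protease and inhibitor genes. The summed level of 8 fibroblast markers was 2006 to 2164 FPKM in the glands and 125 to 436 FPKM in the tumours. All 8 were lower in tumour and none was at 0. The sum of 6 adipocyte markers was 7121 to 9109 FPKM against 39.4 to 283 FPKM (6 of 6 lower), that of 5 endothelial markers 169.8 to 211 against 16.1 to 33.1 (5 of 5 lower), and that of 6 luminal epithelial markers 1028 to 1087 against 2842 to 2987 (6 of 6 higher). Luminal markers were thus present in every library. The 6 basal and myoepithelial markers summed to 522 to 562 FPKM in glands and 92.1 to 294 in tumours, where Oxtr, Acta2 and Mylk fell and Krt5, Krt14 and Trp63 did not pass. Acta2 alone was 312 to 349 FPKM in glands and 12.4 to 48.4 FPKM in tumours. It also stands in the pericyte and smooth muscle list, so these lists are not separate evidence. Pericyte and smooth muscle markers (5 of 5), mast cell markers (3 of 4) and T cell markers (3 of 4) were also lower. The T cell markers summed to 78.2, 23.5 and 80.8 FPKM in glands 1 to 3 and 2.08 to 14.1 FPKM in tumours. Of 5 macrophage markers, 3 were lower in tumour (sum 351 to 405 FPKM against 173 to 331). The 5 neutrophil markers summed to 25.4 to 47.1 FPKM in glands and 269 to 3162 in tumours, where only S100a8 rose, and Retnlg was at 0 in tumour 3. In bulk RNA, fewer cells of a type and less RNA per cell cannot be told apart. Skeletal muscle markers summed to 9502 FPKM in gland 2, 859 in gland 3 and 7.54 in gland 1, and B cell and lymph node markers to 23.1 FPKM in gland 2 against 149 and 141 in glands 1 and 3. Over the protease and inhibitor genes, the median absolute log2 difference was 0.208 between tumours 1 and 2, 0.436 to 0.517 between tumour 3 and the others, and 0.106 to 0.151 among glands. Over all genes averaging at least 1 FPKM it was 0.201 between tumours 1 and 2, 0.236 between tumours 2 and 3 and 0.350 between tumours 1 and 3.

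Most of the measured genes of these families were lower in the tumours. A gene was tested where its mean over the 6 libraries was at least 1 FPKM, and was called where the adjusted p of limma (Benjamini-Hochberg over all 13364 tested genes) was under 0.05. Of the 79 genes, 18 were at 0 in every library (14 Adam genes and Mmp1a, Mmp1b, Mmp20 and Mmp21), 21 more stayed under the filter and 40 were tested. Among these 40, 25 were called lower in tumour (62.5%), against 23.1% of all tested genes. There were 10 called higher (25.0%), against 21.9% of all tested genes. Together 87.5% of the 40 were called in either direction, against 45.1% of all tested genes. A fall of at least 2-fold on the log2 scale was seen in 20 of the 40 against 14.5% of all genes, and a rise of at least 2-fold in 6 of the 40 against 7.67%. The median log2 fold change of the 40 was -1.01, beside 0.008 over all tested genes. All 3 tumour libraries lay below all 3 glands for 25 of the 40, against 29.0% of all genes, and above them for 11, against 29.3%. The filter admits a gene through the group in which it is high: 11 of the 35 called genes had a mean under 1 FPKM in the other group, 3 of them higher and 8 lower in tumour, and 24 had both means at or above it. Log2 fold changes are differences in mean log2(FPKM + 1), tumour minus gland, which understate the change of low genes, and fold values are ratios of mean FPKM.

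**Figure D1:**
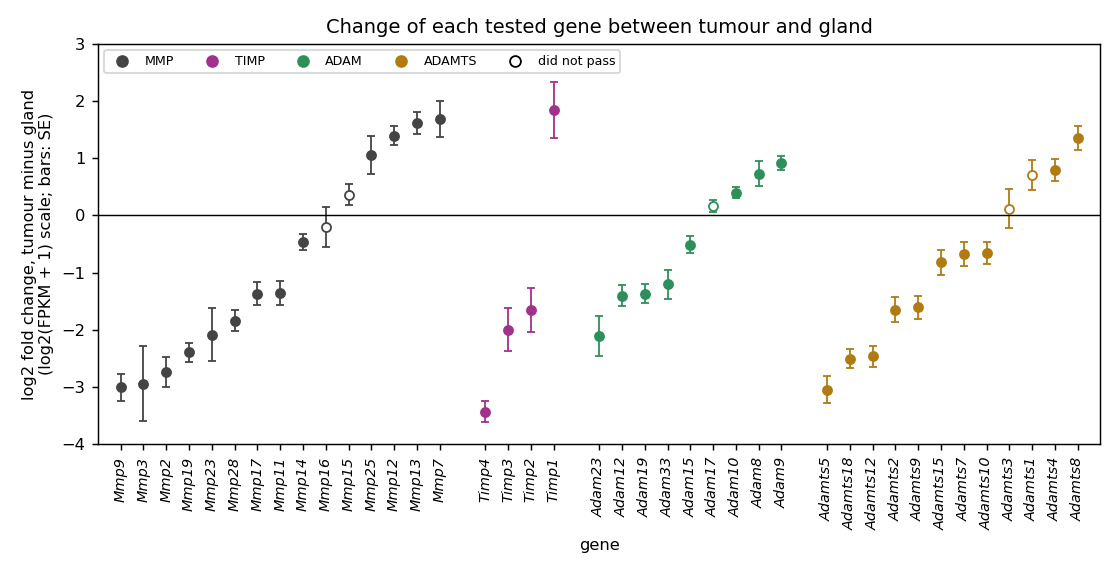
Log2 fold change of each of the 40 tested genes, tumour minus gland on the log2(FPKM + 1) scale, grouped by family on the x axis, with SE as bars, filled symbols for called genes and open symbols for genes that did not pass. Of the symbols, 25 filled ones lie below 0 and 10 above, from Timp4 at -3.43 to Timp1 at 1.85.

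Over all tested genes, 23.1% were called lower and 21.9% higher. By family, 9 of the 15 tested Mmp genes were called lower, 4 higher and 2 did not pass. Of the 4 Timp genes 3 were lower and 1 higher. Of the 9 tested Adam genes 5 were lower, 3 higher and 1 did not pass, and of the 12 tested Adamts genes 8 were lower, 2 higher and 2 did not pass. The summed level of the MMP genes was lower in every tumour library, at 276, 301 and 285 FPKM in glands 1 to 3 and 120, 134 and 129 FPKM in tumours 1 to 3. The ADAMTS sum was 81.4, 76.8 and 77.9 FPKM in the glands and 32.5, 42.7 and 49.5 FPKM in the tumours, again without overlap. The ADAM sum overlapped between the groups, at 135, 126 and 139 FPKM in the glands and 125, 139 and 148 FPKM in the tumours. The sums had no test.

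Genes of the MMP cluster on chromosome 9 went in opposite directions, and the sequences before their starts are shown because 4 called and 6 uncalled or silent genes sit side by side there. The cluster holds 10 MMP genes in 427.1 kb (GRCm38 chr9:7272514-7699585, GENCODE M21), with 0 other protein-coding genes inside. GENCODE M21 classes Mmp1a as a polymorphic pseudogene and the others as protein-coding. In genome order, Mmp13 and Mmp12 were higher in tumour, Mmp1b was at 0, Mmp3 was lower, Mmp1a was at 0, Mmp10, Mmp8 and Mmp27 were under the filter, Mmp20 was at 0 and Mmp7 was higher. The 120 bases before the RefSeq transcription start of 6 of them (GRCm38.p6, plus strand, 5′ to 3′) are printed in lower case, with a match to TGANTCA, the core site of the Fos and Jun family factor AP-1, in capitals:
Mmp13, chr9:7272394-7272513: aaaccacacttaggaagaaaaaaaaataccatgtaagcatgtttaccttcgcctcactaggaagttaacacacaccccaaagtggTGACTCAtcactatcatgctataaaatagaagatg
Mmp12, chr9:7347254-7347373: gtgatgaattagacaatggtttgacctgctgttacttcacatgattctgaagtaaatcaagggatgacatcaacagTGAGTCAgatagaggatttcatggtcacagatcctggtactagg
Mmp3, chr9:7445702-7445821: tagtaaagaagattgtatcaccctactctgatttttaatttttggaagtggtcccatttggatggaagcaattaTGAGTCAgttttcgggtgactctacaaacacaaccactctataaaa
Mmp10, chr9:7502222-7502341: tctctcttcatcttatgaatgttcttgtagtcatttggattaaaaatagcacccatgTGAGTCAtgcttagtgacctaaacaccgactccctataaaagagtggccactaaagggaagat
Mmp27, chr9:7571276-7571395: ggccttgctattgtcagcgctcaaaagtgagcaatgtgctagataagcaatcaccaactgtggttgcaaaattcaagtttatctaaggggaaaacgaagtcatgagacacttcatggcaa
Mmp7, chr9:7691970-7692089: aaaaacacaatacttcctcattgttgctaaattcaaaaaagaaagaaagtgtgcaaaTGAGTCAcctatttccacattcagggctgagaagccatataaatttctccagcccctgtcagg

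The matches began 35 bases before the start in Mmp13, 44 in Mmp12, 46 in Mmp3 and 63 in both Mmp10 and Mmp7, while the Mmp27 stretch held none. RefSeq lists 2 starts each for Mmp12 and Mmp7, and for both genes the one printed is the one with a match. The other start of Mmp12, which lies upstream near its GENCODE start, and the other start of Mmp7 had no match in the 250 bases before them. TGANTCA, searched on both strands in the 250 bases before each start, was present at 1 start or more for 8 of the 10 cluster genes, all but Mmp8 and Mmp27. It was present for 4 of the 39 other members with a promoter entry and for 7.82% of all 27025 genes with one. Per promoter entry the share was 6.75% of 32851. The TATA box letters TATAAA were present for 7 of the 10 cluster genes, 5 of the 39 others and 14.33% of all genes. TGANTCA and TATAAA cannot overlap each other on either strand, while TATAAA can overlap its own reverse complement. Of the 79 genes, 49 had a RefSeq promoter entry. The match was present in genes that rose (Mmp13, Mmp12, Mmp7), in the gene that fell (Mmp3) and in genes at 0 in all libraries (Mmp1a, Mmp1b, Mmp20). A match of letters is a description of the sequence and not evidence of binding.

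**Figure D2:**
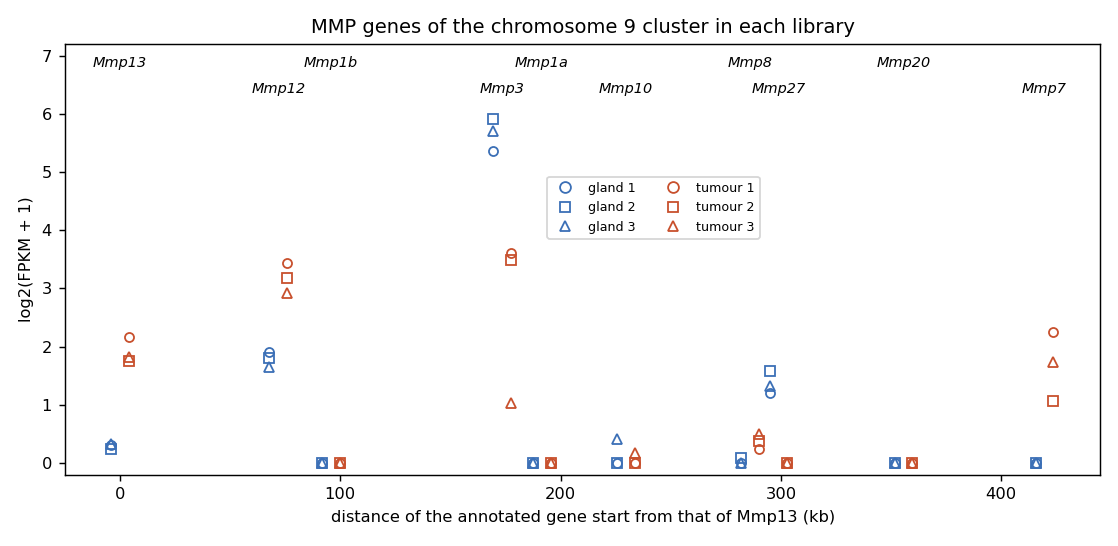
Levels of the 10 clustered MMP genes as log2(FPKM + 1) on the y axis against the distance of each gene's annotated start from that of Mmp13 in kb, with 1 symbol per library (blue glands, orange tumours). Mmp13, Mmp12 and Mmp7 lie higher in the tumours, Mmp3 at 173.3 kb and Mmp27 at 298.9 kb lie lower, and the other genes lie at or near 0.

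Among the collagenases, which cut the triple helix of fibrillar collagens, Mmp13 rose. Its level was 0.246, 0.180 and 0.257 FPKM in glands 1 to 3 and 3.47, 2.39 and 2.54 FPKM in tumours 1 to 3. Every tumour was well above every gland, at low levels throughout. The mean went from 0.228 ± 0.0417 to 2.80 ± 0.584 FPKM (SD, n = 3 each), a 12.3-fold rise that was 1.62 in log2 (SE 0.19, limma adjusted p = 0.000661). Mmp8, the neutrophil collagenase, was under the filter, at 0, 0.0628 and 0 FPKM in glands and 0.189, 0.304 and 0.408 FPKM in tumours.

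Both gelatinases, which cut denatured collagen and collagen IV of basement membranes, fell. Mmp2 (chr8:92827291-92853420) was the second most abundant of these genes in the glands, at 87.7, 97.8 and 90.8 FPKM, and lay at 15.3, 17.5 and 7.92 FPKM in the tumours. The groups were far apart, and tumour 3 was the lowest. The mean fell 6.79-fold, from 92.1 ± 5.16 to 13.6 ± 5.02 FPKM, or by -2.74 in log2 (SE 0.26, limma adjusted p = 0.00033). Mmp9 (chr2:164940780-164955850) was 12.5, 11.1 and 11.4 FPKM in glands and 0.956, 0.813 and 0.0983 FPKM in tumours. All tumours were far below the lowest gland. That fall was 18.8-fold in mean FPKM and -3.01 in log2 (SE 0.24, adjusted p = 0.000148). Mmp2 made up 31.7%, 32.5% and 31.8% of the summed MMP level in the glands and 12.7%, 13.1% and 6.12% in the tumours.

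The stromelysins and matrilysin, most of them (though not stromelysin-3) broad proteases that also activate other MMPs, split. Mmp3 (stromelysin-1), a stromal gene of the branching gland, was 40.0, 59.1 and 50.9 FPKM in glands and 11.2, 10.3 and 1.04 FPKM in tumours. Tumours 1 and 2 resembled each other, and tumour 3 was far below them. The log2 fold change was -2.94 (SE 0.66, adjusted p = 0.0107) and -2.10 without tumour 3. Mmp11 (stromelysin-3) fell 3.63-fold, from 5.52 ± 1.32 to 1.52 ± 0.319 FPKM, with no overlap between 4.03, 6.54 and 6.01 FPKM in glands and 1.65, 1.76 and 1.16 FPKM in tumours (log2 fold change -1.36, adjusted p = 0.00206). Mmp7 (matrilysin), an epithelial MMP without a hemopexin domain, had a listed level of 0 in glands 1 to 3, beside 3.77, 1.10 and 2.33 FPKM in tumours 1 to 3. It was thus above 0 in tumours only, with a log2 difference of 1.69 (SE 0.31, adjusted p = 0.00484) and no fold against 0. An antisense gene shares 11.52% of the exonic bases of Mmp7. Strandedness is not stated in the sources used here, so reads from the shared bases cannot be assigned to one gene or the other. Of the 40 tested genes, 8 share at least 10% of their exonic bases with another gene, and the same holds for them: Mmp19 (28.33%), Timp3 (21.28%), Adam15 (20.55%), Mmp28 (12.03%), Adamts9 (11.99%), Mmp7, Adamts8 (10.6%) and Adam19 (10.09%). Mmp10 (stromelysin-2) was under the filter, above 0 only in gland 3 (0.327 FPKM) and tumour 3 (0.135 FPKM).

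**Figure D3:**
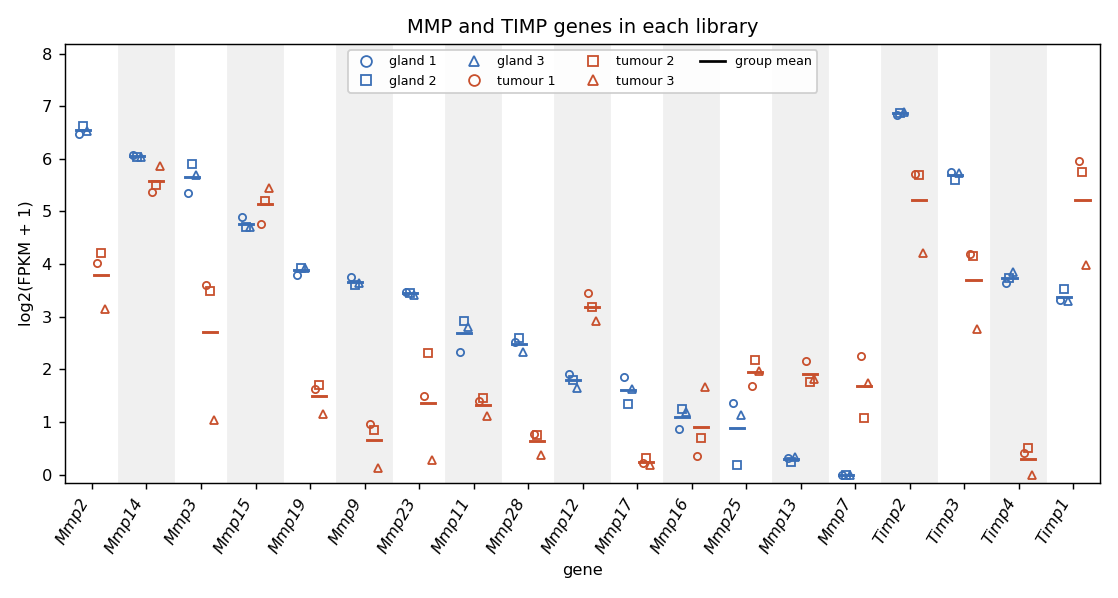
Level of each tested MMP and TIMP gene as log2(FPKM + 1) in every library, with genes on the x axis ordered by gland mean within each family, blue symbols for glands, orange symbols for tumours and short lines for group means. Mmp2, Mmp3 and Mmp9 lie far lower in tumours, Mmp14 and Mmp15 stay high in both groups, and Timp1 is the one TIMP gene that lies higher in tumours.

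Of the 5 tested membrane-type MMPs, which act at the cell surface, 2 fell, 1 rose and 2 did not pass (all tested genes: 23.1% lower and 21.9% higher). Mmp14 (MT1-MMP), a collagenase and the main activator of pro-MMP2, was 66.2, 64.8 and 64.3 FPKM in glands and 40.5, 44.2 and 57.5 FPKM in tumours. All tumours were lower, tumour 3 least so. The fall was 1.37-fold (log2 fold change -0.47, SE 0.14, adjusted p = 0.0333), and the call was lost when any library other than tumour 3 was left out (adjusted p 0.0715 to 0.109, and 0.000864 to 0.286 over all alternatives). With 47.4 ± 8.92 FPKM, Mmp14 had the highest tumour mean of all 79 genes, and its share of the summed MMP level was 23.9%, 21.5% and 22.5% in glands and 33.7%, 33.1% and 44.4% in tumours. Mmp15 (MT2-MMP) did not pass: its level was 28.9, 25.0 and 25.2 FPKM in glands and 26.2, 35.7 and 42.4 FPKM in tumours, where tumour 1 overlapped the glands. The log2 fold change of 0.36 (SE 0.18, adjusted p = 0.142) became 0.55 without tumour 1, which passed (adjusted p = 0.0179), and 0.21 without tumour 3.

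Mmp17 (MT4-MMP), which is held by a lipid anchor, fell 11.3-fold, from 2.64, 1.54 and 2.09 FPKM to 0.168, 0.254 and 0.134 FPKM (log2 fold change -1.37, adjusted p = 0.00199). Mmp25 (MT6-MMP), the other lipid-anchored MMP and one known from leukocytes, rose from 1.57, 0.137 and 1.20 FPKM to 2.23, 3.55 and 2.93 FPKM. Gland 2 was far below the other glands, and the log2 fold change of 1.06 (SE 0.33, adjusted p = 0.037) was 0.70 without it. The call was lost without gland 3 or without any 1 tumour (adjusted p 0.0522 to 0.116, and 0.00442 to 0.116 over all alternatives). Mmp16 (MT3-MMP), the remaining tested member, did not pass and was 2.16 FPKM in tumour 3 against 0.284 to 0.620 in the other tumours.

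Of the other MMPs, Mmp12 (macrophage elastase) rose and 3 fell (all tested genes: 21.9% higher and 23.1% lower). Mmp12 was 2.76, 2.49 and 2.15 FPKM in glands and 9.89, 8.12 and 6.60 FPKM in tumours. Each tumour was above each gland by more than the spread within either group, a 3.32-fold rise of the mean (log2 fold change 1.40, SE 0.17, adjusted p = 0.000867). Of the 5 macrophage markers, 0 were called higher and 3 lower, while Cd68 and C1qa did not pass. Their relation to the level of Mmp12 was not tested. Mmp19 fell 7.48-fold, from 12.95, 14.2 and 14.2 FPKM to 2.07, 2.24 and 1.23 FPKM (log2 fold change -2.40, adjusted p = 0.000113), and shares exonic bases with Tmem198b and an antisense gene. Mmp28 (epilysin) fell 8.10-fold, from 4.73, 5.02 and 4.02 FPKM to 0.702, 0.694 and 0.305 FPKM (log2 fold change -1.84, adjusted p = 0.000363). Mmp23 was close to 10 FPKM in all glands (10.1, 9.94 and 9.67) and scattered in tumours (1.80, 3.96 and 0.219), all of them lower (log2 fold change -2.09, SE 0.46, adjusted p = 0.0104). Mmp27, under the filter, was 1.32, 2.01 and 1.49 FPKM in glands and listed at 0 in all tumours.

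Of the 4 inhibitors, Timp2, Timp3 and Timp4 fell and Timp1 rose, so that the make-up of the TIMP RNA differed between the tissues. Timp1 (chrX:20870166-20874735), an inducible and secreted inhibitor, was 8.95, 10.6 and 8.81 FPKM in glands and 60.9, 52.6 and 14.8 FPKM in tumours. Tumours 1 and 2 were far above the glands, and tumour 3 was only a little above them. The rise was 4.53-fold (log2 fold change 1.85, SE 0.49, adjusted p = 0.0205) and 2.47 in log2 without tumour 3. It was no longer called without gland 1, gland 3, tumour 1 or tumour 2 (adjusted p 0.0558 to 0.0715, and 4.3e-05 to 0.282 over all alternatives).

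Timp2, which also takes part in pro-MMP2 activation by MMP14, had the highest gland level of all 79 genes, 113, 116 and 118 FPKM. In tumours it was 51.3, 51.0 and 17.6 FPKM, below the glands in all 3 and lowest in tumour 3 (2.90-fold lower, log2 fold change -1.66, SE 0.39, adjusted p = 0.0126). Timp3, which binds the matrix and inhibits several ADAM and ADAMTS enzymes, went from 53.0, 47.5 and 52.5 FPKM to 17.2, 16.8 and 5.80 FPKM, with tumour 3 again lowest (3.84-fold lower, log2 fold change -1.996, SE 0.37, adjusted p = 0.00489). The exonic bases it shares belong to Syn3. Timp4 (chr6:115241892-115252205), abundant in adipose tissue, went from 11.4, 12.3 and 13.4 FPKM to 0.333, 0.421 and 0 FPKM (log2 fold change -3.43, SE 0.18, adjusted p = 3.72e-05). All tumours were far below 1 FPKM.

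Timp1 made up 4.80%, 5.67% and 4.57% of the summed TIMP level in glands and 47.0%, 43.5% and 38.7% in tumours, while Timp2 went from 60.6%, 62.3% and 61.3% to 39.5%, 42.2% and 46.1%. The shift in share was seen in tumour 3 as well, although its summed TIMP level was 38.3 FPKM against 129.8 and 121 FPKM in tumours 1 and 2 and 186, 187 and 193 FPKM in glands. The ratio of summed TIMP to summed MMP level was 0.674, 0.620 and 0.675 in glands and 1.08, 0.905 and 0.296 in tumours. Tumours 1 and 2 were thus above the glands and tumour 3 below them, and no common direction was present. Fibroblast and adipocyte marker sums were also lowest in tumour 3. Their part in the levels of these genes was not tested.

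**Figure D4:**
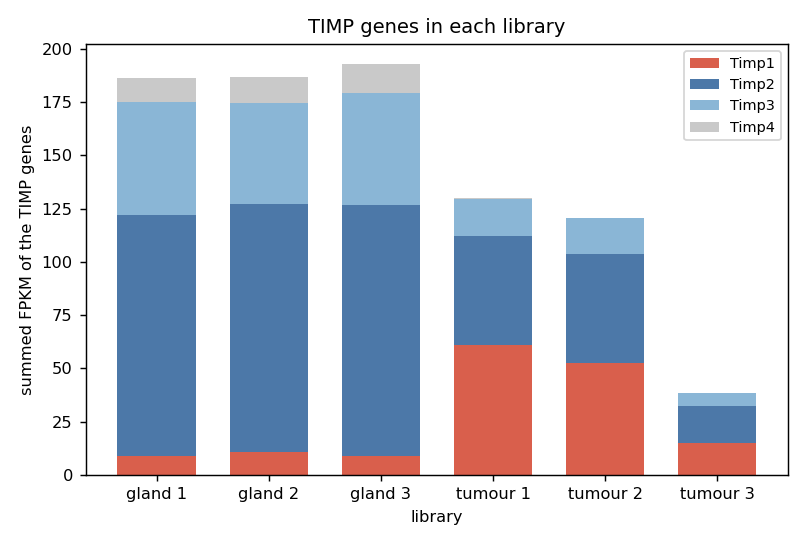
Stacked FPKM of the 4 TIMP genes in each library, with glands on the left and tumours on the right. Timp1 makes up 4.57% to 5.67% of the stack in glands and 38.7% to 47.0% in tumours, and the whole stack of tumour 3, at 38.3 FPKM, is the lowest.

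Of the ADAMs with a catalytic site, the sheddases Adam9, Adam10 and Adam8 rose and Adam12, Adam15, Adam19 and Adam33 fell. Adam9 (chr8:24949611-25016927), a widely expressed sheddase, was 16.3, 18.0 and 17.5 FPKM in glands and 29.8, 33.3 and 38.4 FPKM in tumours. The groups were clearly separate (1.96-fold, log2 fold change 0.92, SE 0.12, adjusted p = 0.00114). Adam10, which cleaves Notch receptors and E-cadherin, rose 1.33-fold, from 32.7, 29.4 and 32.3 FPKM to 40.9, 41.3 and 43.4 FPKM (log2 fold change 0.40, SE 0.09, adjusted p = 0.0129). Adam8, known from leukocytes and invasive tumour cells, went from 4.69, 2.71 and 4.66 FPKM to 6.10, 7.31 and 8.31 FPKM (log2 fold change 0.73, adjusted p = 0.0275). That call was lost without gland 2, tumour 2 or tumour 3 (adjusted p 0.0545 to 0.0791, and 0.00598 to 0.0791 over all alternatives).

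Adam17, the TNF and EGF receptor ligand sheddase, did not pass. It was 20.1, 19.1 and 22.0 FPKM in glands and 21.9, 23.2 and 23.6 FPKM in tumours, and gland 3 lay just above tumour 1 (log2 fold change 0.16, SE 0.10, adjusted p = 0.233). Adam15 fell 1.43-fold, from 33.5, 36.3 and 39.2 FPKM to 20.9, 26.2 and 29.0 FPKM (log2 fold change -0.51, adjusted p = 0.0246), a call lost without gland 2, gland 3 or tumour 2 (adjusted p 0.0597 to 0.0936, and 0.00352 to 0.226 over all alternatives). Adam10, Adam17, Adam9 and Adam15 together held 76.1%, 81.8% and 79.9% of the summed ADAM level in glands and 90.8%, 89.4% and 91.1% in tumours.

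Besides Adam15, the catalytic ADAMs that fell were Adam12, Adam19 and Adam33. Adam12 (meltrin alpha) fell 4.09-fold, from 5.32, 4.28 and 4.23 FPKM to 1.19, 1.41 and 0.771 FPKM (log2 fold change -1.41, adjusted p = 0.00106). Adam19 (meltrin beta) fell 3.50-fold, from 6.72, 5.21 and 5.73 FPKM to 1.53, 2.16 and 1.36 FPKM (log2 fold change -1.37, adjusted p = 0.000994). Adam33 was low in both tissues and fell from 2.07, 1.81 and 2.86 FPKM to 0.207, 0.190 and 0.902 FPKM (log2 fold change -1.20, adjusted p = 0.00864). None of these 3 overlapped between the groups, and all tumours lay below all glands for 29.0% of all tested genes. The fibroblast markers, 8 of 8 lower with a median log2 fold change of -3.31, moved with these 3 genes, and their part was not tested.

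Adam23, which lacks a catalytic site and binds integrins, fell 7.14-fold, from 9.96, 6.21 and 6.29 FPKM to 1.64, 1.34 and 0.165 FPKM (log2 fold change -2.11, SE 0.34, adjusted p = 0.00285). Its relative Adam11 was under the filter, at 0.664, 0.442 and 1.10 FPKM in glands and 0.0462, 0.233 and 0.183 FPKM in tumours. Adam1a, a testis gene of the fertilin family, was also under it, with at most 1.17 FPKM in a gland, and shares 63.71% of its exonic bases with neighbouring genes. It is among 21 Adam genes, most of them known from testis, that were all under the filter, and 14 of these were at 0 in every library.

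**Figure D5:**
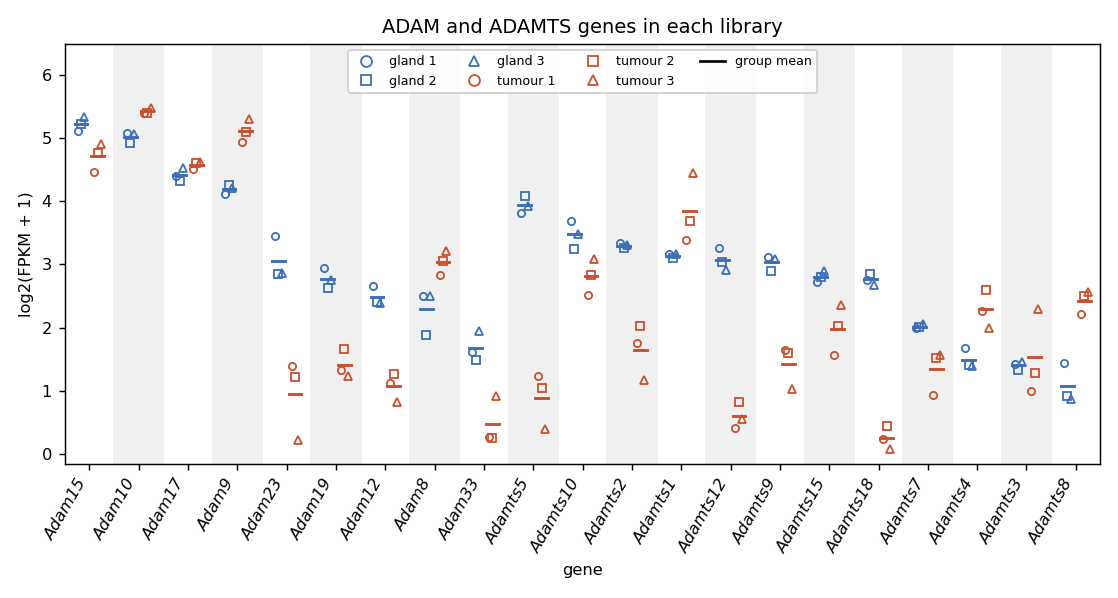
Level of each tested ADAM and ADAMTS gene as log2(FPKM + 1) in every library, with genes on the x axis ordered by gland mean within each family, blue symbols for glands, orange symbols for tumours and short lines for group means. Adam9 and Adam10 lie higher in tumours, and Adamts5, Adamts12 and Adamts18 lie far below the glands in all 3 tumours.

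The ADAMTS proteoglycanases, which cut aggrecan, versican and related proteoglycans, went both ways. Adamts5 (aggrecanase-2) was 13.03, 16.0 and 14.1 FPKM in glands and 1.35, 1.07 and 0.318 FPKM in tumours. The highest tumour was far below the lowest gland, a 15.8-fold fall (log2 fold change -3.05, SE 0.23, adjusted p = 0.000136). Adamts9 fell 4.15-fold, from 7.68, 6.47 and 7.51 FPKM to 2.12, 2.05 and 1.05 FPKM (log2 fold change -1.61, adjusted p = 0.000918). Adamts15 fell 1.96-fold, from 5.57, 5.98 and 6.43 FPKM to 1.96, 3.07 and 4.14 FPKM (log2 fold change -0.82, adjusted p = 0.0197), a call lost without gland 2, gland 3 or tumour 2 (adjusted p 0.0534 to 0.0736, and 0.0012 to 0.226 over all alternatives).

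Adamts4 (aggrecanase-1) and Adamts8 rose. Adamts4 went from 2.20, 1.65 and 1.62 FPKM to 3.81, 5.06 and 3.005 FPKM (2.17-fold, log2 fold change 0.80, adjusted p = 0.0165), a call lost without gland 3 or tumour 2 (adjusted p 0.0541 to 0.0645, and 0.000885 to 0.143 over all alternatives). Adamts8 went from 1.73, 0.884 and 0.828 FPKM to 3.63, 4.68 and 4.92 FPKM, a 3.84-fold rise (log2 fold change 1.35, SE 0.21, adjusted p = 0.00249). Adamts8 and Adamts15 are neighbours on chromosome 9, 20.1 kb apart on opposite strands with 0 protein-coding genes between them, and were called in opposite directions.

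Adamts1, an inducible versican-cleaving enzyme, did not pass although its groups did not overlap. It was even in glands, at 7.97, 7.56 and 7.93 FPKM, and uneven in tumours, at 9.47, 11.9 and 20.9 FPKM, where tumour 3 was highest (log2 fold change 0.71, SE 0.26, adjusted p = 0.0644). It passed without tumour 1 (0.93, adjusted p = 0.0228) and without tumour 3 (0.40, adjusted p = 0.0465), and its adjusted p ranged from 0.0082 to 0.354 over all alternatives. Its neighbour Adamts5 lies 53.1 kb away on the same strand of chromosome 16, with 0 protein-coding genes between them.

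Of the procollagen N-propeptidases, which trim fibrillar procollagens before fibres form, Adamts2 fell 3.96-fold, from 9.11, 8.54 and 8.88 FPKM to 2.38, 3.06 and 1.26 FPKM (log2 fold change -1.65, adjusted p = 0.00131). Adamts3 did not pass (1.70, 1.52 and 1.76 FPKM against 1.01, 1.44 and 3.92 FPKM), with tumour 3 alone above the glands. Adamts14 was under the filter, at 1.63, 1.07 and 1.37 FPKM in glands and 0.228, 0.601 and 0 FPKM in tumours. The substrates Col1a1, Col1a2 and Col3a1 were called lower as well. Since they also stand in the fibroblast marker list, they are not separate evidence of it.

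All 4 tested members of the remaining ADAMTS genes were called lower, against 23.1% of all tested genes. Adamts18 had the largest fold fall in mean FPKM among tested genes with no library at 0, 28.9-fold, from 5.77, 6.25 and 5.38 FPKM to 0.178, 0.359 and 0.0649 FPKM (log2 fold change -2.51, SE 0.17, adjusted p = 8.81e-05). Adamts12, which cuts cartilage oligomeric matrix protein, fell 14.0-fold, from 8.56, 7.19 and 6.56 FPKM to 0.337, 0.777 and 0.479 FPKM (log2 fold change -2.47, adjusted p = 0.000113). Neither gene had a tumour library above 1 FPKM. Adamts7, with the same substrate, went from 2.98, 3.02 and 3.15 FPKM to 0.918, 1.86 and 1.96 FPKM (log2 fold change -0.68, adjusted p = 0.0343). That call was lost without any 1 gland or without tumour 2 (adjusted p 0.0537 to 0.106, and 0.0097 to 0.397 over all alternatives). Adamts10, which binds fibrillin, fell 1.66-fold, from 11.9, 8.52 and 10.2 FPKM to 4.75, 6.14 and 7.50 FPKM (log2 fold change -0.66, adjusted p = 0.0267), a call lost without gland 1, gland 3, tumour 1 or tumour 2 (adjusted p 0.0584 to 0.0944, and 0.00194 to 0.38 over all alternatives). Adamts17 was under the filter, at 0.829 to 1.02 FPKM in glands and 0.0261 to 0.198 FPKM in tumours.

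Genes listed as activation and inhibition partners of these enzymes, not all of which act on them directly, moved in both directions. Of 26 tested, 10 were higher, 11 lower and 5 did not pass, beside 21.9% higher and 23.1% lower over all tested genes. The median log2 fold change was -0.002. The epithelial serine proteases St14 (matriptase) and Hpn (hepsin) rose, St14 from 36.98 ± 1.94 to 93.7 ± 5.03 FPKM (log2 fold change 1.32, adjusted p = 0.000117) and Hpn from 6.83 ± 0.778 to 15.4 ± 1.27 FPKM (1.07). The serpin gene Serpinb5 (maspin) rose by 2.43 on the log2 scale. Plau (urokinase), which generates plasmin, fell from 26.2, 24.5 and 25.7 FPKM to 10.2, 9.45 and 7.14 FPKM (-1.43), and Reck, a membrane-anchored MMP inhibitor, fell from 6.01 ± 0.672 to 1.12 ± 0.306 FPKM (-1.73). Spock2 and Pcolce2, an enhancer of procollagen C-propeptide removal, also fell (-2.05 and -3.56). Furin, which activates membrane-type MMPs, ADAMs and ADAMTS enzymes, had group means of 33.7 ± 4.14 and 33.7 ± 4.403 FPKM with overlapping libraries (0.0004, SE 0.14, adjusted p = 0.998), and Ctsb (cathepsin B) did not pass either (-0.005).

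The ADAM10 and ADAM17 partners were called higher for 4 of 8 tested genes and lower for 2 (all tested genes: 21.9% and 23.1%), with a median log2 fold change of 0.45. The iRhom gene Rhbdf2, whose product brings ADAM17 to the cell surface, rose from 13.3, 9.75 and 10.5 FPKM to 16.2, 17.3 and 23.3 FPKM (log2 fold change 0.70, adjusted p = 0.0168), a call lost without gland 2 or gland 3 (adjusted p 0.0559 to 0.0637). Frmd8, which stabilises that complex, rose by 0.89, and Tspan14 and Tspan15, tetraspanins that steer ADAM10, rose by 0.66 and 0.67. Tspan17 fell by 0.94 and Tspan5 by 0.72, the latter not called without any 1 library other than tumour 3 (adjusted p 0.0564 to 0.107). Rhbdf1 and Tspan33 did not pass (0.23 and 0.19), though Rhbdf1 did without tumour 1 (0.39, adjusted p = 0.0435).

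Genes for shed ligands and receptors were called higher for 4 of 20 tested, lower for 8 and did not pass for 8, with a median log2 fold change of -0.01. The share called higher was near the 21.9% of all tested genes, of which 23.1% were lower. Cdh1 (E-cadherin), cut by ADAM10, rose from 54.8 ± 4.50 to 128 ± 20.4 FPKM (1.21), and Tgfa, an EGF receptor ligand released by ADAM17, from 1.21 ± 0.538 to 4.64 ± 1.32 FPKM (1.36). Hbegf and Met also rose (0.83 and 0.39). The call of Hbegf was lost without any 1 gland or without tumour 1 (adjusted p 0.0643 to 0.115), and that of Met without gland 2, gland 3 or tumour 2 (adjusted p 0.0571 to 0.0837). The adhesion molecule genes Icam1, Vcam1 and Alcam fell by 2.55, 1.92 and 1.16, and the Notch ligand gene Jag1 by 1.31. Tnfrsf1a and Cxcl16 did not pass (0.40 and 0.19), but Tnfrsf1a did without tumour 1 (0.55, adjusted p = 0.0125) and Cxcl16 without tumour 3 (0.38, adjusted p = 0.034).

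Matrix substrates were mostly lower: 15 of 19 tested were called lower, against 23.1% of all tested genes, 2 higher, against 21.9%, and 2 did not pass. The median log2 fold change was -1.72. Basement membrane genes that fell included Col4a1 from 147 ± 17.6 to 35.7 ± 4.37 FPKM (-2.01), Col4a2 by 2.02, Nid1 from 71.8 ± 0.724 to 7.52 ± 3.31 FPKM (-3.18) and Lama1 by 1.67. Tnc (tenascin-C), a matrix glycoprotein of remodelling tissue, rose from 5.43, 4.73 and 4.78 FPKM to 20.4, 24.0 and 6.50 FPKM (1.41, adjusted p = 0.0337), least in tumour 3. That call was lost without any 1 library other than tumour 3 (adjusted p 0.071 to 0.103). Comp, cut by ADAMTS7 and ADAMTS12, was 0.163, 0.199 and 0.268 FPKM in glands and 1.24, 1.997 and 7.67 FPKM in tumours (1.68, adjusted p = 0.027). Tumour 3 was its highest library, and the value was 1.10 without it, while the call was lost without any 1 gland (adjusted p 0.0667 to 0.0708). Bgn (biglycan) did not pass (-0.66), and it was lowest in tumour 3, without which it was -0.14.

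In the ADAMTS-like group, secreted relatives without a protease domain, 4 genes were tested: 1 was higher, 2 lower and 1 did not pass (all tested genes: 21.9% higher and 23.1% lower). Papln (papilin) rose from 4.19, 3.52 and 3.83 FPKM to 18.1, 26.9 and 109 FPKM (log2 fold change 3.004, SE 0.59, adjusted p = 0.0065), with tumour 3 far above the other tumours. Adamtsl5 fell by 1.91 and Adamtsl4 by 0.58, the latter not called without any 1 gland or without tumour 1 (adjusted p 0.0603 to 0.0739), and Thsd4 did not pass (0.002). Over all 77 tested genes of the 5 lists, 21 were higher, 38 lower and 18 did not pass, against 21.9% higher and 23.1% lower over all tested genes.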

How the data were processed

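RNA was measured in 6 libraries, 3 of gland and 3 of tumour, grouped by the labels. The deposited table holds 1 value per gene symbol and library. Its header names no unit, and the values were taken as FPKM, computed by the authors, since the submitters' processing notes name HISAT2, StringTie and mm10, with no version or role. The sources used here do not give read numbers, strandedness or the authors' annotation, so the depth is unknown and no counting interval can be given. Steps between low values put glands 1 and 2 and tumours 2 and 3 roughly 1.43 to 1.58 times deeper than tumour 1, and gave no clear value for gland 3.

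Genes averaging 1 FPKM or more over all libraries were tested on log2(FPKM + 1), a pseudocount of 1, with limma 3.58.1 (trend, 2-sided, all 6 libraries) in R 4.3.3, with Benjamini-Hochberg adjustment over 13364 genes and a threshold of 0.05. The script was tested on simulated data. Gene positions came from GENCODE M21 (GRCm38) and promoter sequences from RefSeq (GRCm38.p6), and tables were handled with Python 3.11.15 and pandas 2.3.3. Every called gene of the 4 families is named, those that did not pass from a mean of 3 FPKM, and untested ones with a library of at least 1 FPKM. In each partner list up to 4 called genes per direction and up to 2 that did not pass are named. Results for some items of these lists are not reported here, though the counts include them. A few others named for their position were chosen after their values were seen. The genes and lists were chosen with earlier results of these data known. No library was dropped or imputed. The labels do not pair the libraries, and deviations from the group means of same-numbered libraries had r = -0.054, -0.118 and -0.124 across genes, so the main test has no block.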

Additional observations from a re-analysis of the deposited data

How the results depend on the processing

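Of the 35 called genes, 13 kept their call in each of the 16 alternatives in which they were tested (a mean of at least 5 FPKM leaves some out), and 26 kept it in all 6 omissions of a single library. Leaving out 1 library gave 6 to 10 genes higher and 20 to 25 lower, against 10 and 25 (all genes: 2049 to 3130 higher, 2258 to 3241 lower, against 2933 and 3090), and the fewest, 6 higher, came without tumour 2. A 2-fold minimum left 6 higher (all genes 1025 higher, 1942 lower). A mean of at least 5 FPKM left only 21 of the protease and inhibitor genes tested, of which 5 were higher and 13 lower. Those 21 had the same outcome as in the main test, so the smaller counts come from fewer genes tested. Over all 9766 genes tested at that minimum, 2464 were higher and 1864 lower. With only gland 2 left, whose lone value is assumed to vary like the tumours, 3 were higher and 11 lower (all genes 790 and 1262, partner genes 7 and 10, against 21 and 38). The replicate block gave 8 higher and 22 lower (all genes 2147 and 2581), without the calls of Adam10, Adamts10, Adamts7, Mmp14 and Mmp25. The labels do not pair the libraries, and every r of same-numbered libraries was negative. Quantile normalization moved the median of all genes from 0.008 to 0.119, and lost the calls of Adam33, Adamts15 and Adamts7. A common sum lost the calls of Adam10, Adam8, Mmp14 and Mmp25, and averaging tumours 1 and 2 those of Adamts10, Mmp14, Mmp25 and Timp1. The pseudocount of 0.1 lost that of Mmp25.

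Signs were reversed for 5 genes that did not pass and for no named gene that did. Adamts3 became -0.12 with array weights, and -0.26 to 0.38 over the omissions of 1 library, below 0 without tumour 3. Mmp16 became 0.38 with quantile normalization, and -0.57 to 0.074 over the omissions, above 0 without tumour 1. Ctsb became 0.0701 with array weights and 0.0326 with only gland 2, and -0.0804 to 0.133 over the omissions. Furin became -0.0165 with array weights, -0.0659 with a common sum, -0.00949 with median-of-ratios scaling and -0.0787 with quantile normalization, and -0.0905 to 0.0961 over the omissions. Thsd4 became -0.0419 with a common sum and -0.00406 with median-of-ratios scaling, and -0.0831 to 0.142 over the omissions. Their causes were not tested.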

Other observations

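Without a filter on low values, 11 of the 61 testable genes of the 4 families were called higher and 31 lower. Over all 18174 genes tested that way, 2954 were higher and 3803 lower, against 2933 and 3090 of 13364 with the filter. In the 4 families, 7 more genes were called than with the filter, named here after their values were seen. Mmp27 (-1.37, limma adjusted p = 0.000451), Adamts14 (-0.90, adjusted p = 0.0131), Adamts17 (-0.79, adjusted p = 0.00143), Adam11 (-0.58, adjusted p = 0.0287), Adam22 (-0.56, adjusted p = 0.00398) and Adamts20 (-0.41, adjusted p = 0.00963) were lower in tumour on the log2(FPKM + 1) scale. Adam22 was 0.612, 0.506 and 0.697 FPKM in glands and 0, 0.141 and 0.120 FPKM in tumours, and Adamts20 was 0.221, 0.441 and 0.400 FPKM against 0, 0.0417 and 0 FPKM. Mmp8 was higher (0.35, adjusted p = 0.0183), in all 3 tumours above all 3 glands. Its level stayed under 0.5 FPKM in every library.

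Tumour 3 differed from tumours 1 and 2 in a gene-dependent way. Among other genes, it had the lowest tumour level of Mmp2, Mmp3, Mmp9, Mmp23, Timp1, Timp2, Timp3 and Timp4, and the highest of Mmp14, Mmp15, Mmp16, Adam9, Adam10, Adamts1, Adamts3, Adamts15 and Papln. These are examples and not full lists. Some gaps were small, as for Adam10, at 43.4 FPKM against 40.9 and 41.3 FPKM in tumours 1 and 2. Tumour 3 was not tested against the other tumours.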
